A study of Mus musculus with 21 samples.

Results

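Cytosolic ribosomal protein genes encode the protein components of the ribosome that works in the cytosol, and they were followed here through 7 groups of T cells from mice with an injured heart. They were chosen by symbol alone: Rpl or Rps with a number and at most 1 of the letters a, l, x or y, plus Rplp0, Rplp1, Rplp2 and Rpsa, with pseudogenes named as such left out. Of 49510 genes in the table, 82 met that rule, 32 of the small subunit, 47 of the large subunit and 3 of the stalk. All the mice carried Foxp3-GFP, in which green fluorescence follows Foxp3, the master regulator of regulatory T cells (Tregs), and were 8 weeks of age and had had a myocardial infarction 7 days before. The groups are Tregs and conventional T cells (Tconvs) of heart, Tregs of the mediastinal lymph node (MLN), into which lymph from the heart flows, and Tregs and Tconvs each of a non-draining lymph node (NDLN) and of spleen, with 3 libraries a group. Uninjured mice and MLN Tconvs are not analysed here, and the comparisons are between sites and between cell types after infarction. Cells went through magnetic and then fluorescence sorting into lysis buffer, and the RNA was amplified with a kit for very small amounts. Whether the 3 libraries of a group came from separate animals or pools is not stated in the labels, so each p-value measures the spread between libraries, which may be technical.

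The ribosome joins a small subunit, which reads the messenger RNA, to a large subunit, which forms the peptide bond and holds the tunnel through which the new protein leaves. The stalk proteins Rplp0, Rplp1 and Rplp2 stand out from the large subunit and recruit the factors that drive elongation. Messenger RNAs of ribosomal proteins begin at a C followed by a stretch of pyrimidines (the TOP motif), by which the kinase mTOR and the RNA-binding protein Larp1 tie their translation and stability to nutrients and growth signals, and lymphocytes that leave the resting state enlarge their pool of ribosomes.

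The genes lie on 19 chromosomes, with 14 of them on chromosome 7. Start sites of 60 of the 82 were found among RefSeq promoters (GRCm38.p6). Within 15 bases on either side of the annotated start, 26 of these 60 (43.3%) had an unbroken run of at least 8 pyrimidines (C or T, on the gene's strand), against 13.8% of 26965 other promoters. The windows below belong to genes whose levels the results turn on, and capitals mark the longest pyrimidine run of each. They lie at chr3:90213634-90213663, minus strand (Rps27), chr9:66946071-66946100, plus strand (Rps27l), chr4:86857353-86857382, minus strand (Rps6), chr9:120127751-120127780, plus strand (Rpsa), chrX:37085208-37085237, minus strand (Rpl39), chr4:152324421-152324450, plus strand (Rpl22), chr11:97782425-97782454, minus strand (Rpl23), chr2:39005117-39005146, minus strand (Rpl35), chr2:32961697-32961726, plus strand (Rpl12) and chr7:141447636-141447665, plus strand (Rplp2), each printed on its gene's strand.
Rps27: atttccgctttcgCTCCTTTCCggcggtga
Rps27l: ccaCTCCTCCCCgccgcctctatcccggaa
Rps6: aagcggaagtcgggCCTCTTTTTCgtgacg
Rpsa: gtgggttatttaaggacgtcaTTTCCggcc
Rpl39: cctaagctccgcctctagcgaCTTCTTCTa
Rpl22: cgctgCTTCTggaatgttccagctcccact
Rpl23: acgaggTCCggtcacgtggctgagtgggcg
Rpl35: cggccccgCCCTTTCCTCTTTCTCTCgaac
Rpl12: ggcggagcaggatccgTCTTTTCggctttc
Rplp2: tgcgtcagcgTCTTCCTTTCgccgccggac
The RefSeq start used for Rpl22 lies upstream of the gene as annotated in GENCODE M21, which begins at 152325742, so its window is uncertain. Rpl35, with 18 bases, and Rplp2, with 10, had long runs in this window, while that of Rpl23 had 3. Over the 60 genes the longest run had a median of 7 bases and went up to 21 in Rpl7a. In the 300 bases from 250 before to 50 after the start, CGGAAG (either strand), the core of the sites bound by Ets-family factors, was found in 41 of 60 (68.3%), against 18.7% of other promoters. GGGCGG (either strand), the core of Sp1 sites, was found in 36 (60.0%), against 38.2% of others. TATAAA on the gene's strand was in 0 of the 60 windows of 50 bases before the start, against 3.16% of others. The members tested with a run of at least 8 pyrimidines (n = 26) and without one (n = 32) had median log2 fold changes of -1.81 and -1.83 for heart over NDLN Tconvs, -1.70 and -1.53 for heart over spleen Tconvs, and -1.46 and -1.25 for MLN over NDLN Tregs.

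Libraries held 14515387 to 28323649 counts. Foxp3, the check of the sort, had 39.4 to 248 CPM (counts per 1000000 of the TMM-scaled library total) in every Treg library. Tconv libraries held 6 counts of it in all in heart, 0 in NDLN and 2 in spleen. The 5 T cell markers Cd3d, Cd3e, Cd3g, Cd247 and Lck summed to 3720 to 6351 CPM in every library. This and the other marker sums are per 1000000 of the unscaled library total. Markers of other cells were present by group. Erythroid markers (5 of 5 found) summed to 342 to 29910 CPM in MLN Tregs, 1221 to 23789 in spleen Tregs and 348 to 1153 in spleen Tconvs, against at most 30.6 in any heart or NDLN library. B cell markers summed to 242 to 281 CPM in NDLN Tregs and 236 to 472 in spleen Tregs, against 0.0509 to 2.14 in NDLN Tconvs and 0.0371 to 21.9 in spleen Tconvs. The defining B cell factor Pax5 was at 0 in NDLN Tregs and in NDLN Tconvs. Fibroblast markers summed to 43.9 to 375 CPM in heart Tregs (Pdgfra at 0) and 1.44 to 117 in heart Tconvs, against at most 5.18 in any lymphoid library. What part these other cells have in the ribosomal protein values was not tested.

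Ribosomal protein genes took a smaller share of the counts in heart T cells and MLN Tregs than in NDLN and spleen Tconvs, and Tregs lay below Tconvs in NDLN and spleen. By library the share was 5.50, 12.2 and 11.5% in heart Tregs, 5.85, 8.03 and 12.6% in heart Tconvs and 4.84, 9.62 and 12.5% in MLN Tregs. It was 17.5, 16.6 and 16.4% in NDLN Tregs, 21.5, 20.7 and 24.6% in NDLN Tconvs, 14.0, 11.2 and 14.1% in spleen Tregs and 23.2, 16.8 and 22.7% in spleen Tconvs. The 95% Wilson interval of each share reaches at most 0.0222 percentage points to either side and covers counting error only. The group means were 9.73 ± 3.68% in heart Tregs, 8.82 ± 3.43% in heart Tconvs, 8.97 ± 3.85% in MLN Tregs, 16.9 ± 0.603% in NDLN Tregs, 22.3 ± 2.06% in NDLN Tconvs, 13.1 ± 1.67% in spleen Tregs and 20.9 ± 3.55% in spleen Tconvs (SD, n = 3 each). From the lowest mean to the highest, the order was heart Tconvs, MLN Tregs, heart Tregs, spleen Tregs, NDLN Tregs, spleen Tconvs and NDLN Tconvs. The libraries of each group overlapped those of the next, except that spleen Tregs lay below NDLN Tregs without overlap. In bulk RNA, fewer cells that make much ribosomal protein mRNA and less of it per cell cannot be told apart.

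The low groups hold libraries that stand apart. Heart Treg replicate 1, heart Tconv replicates 1 and 2 and MLN Treg replicates 1 and 2, which were singled out with their low shares known, lay at 4.84 to 9.62%, against 11.2 to 24.6% in the other 16, so that the gap describes how they were chosen. Their depth, at 17108984 to 20060148 counts, lay within the range of the other 16 (14515387 to 28323649) but below their median of 23940938. Another measure separated the same libraries: transcripts encoded by the mitochondrial genome took 0.956 to 1.77% of their counts, against 2.88 to 17.2% in the other 16, and the mitochondrial ribosomal RNAs alone took 0.0567 to 0.102%, against 0.954 to 12.3%. The TMM scaling factor separated them too, at 1.16 to 1.35 against 0.799 to 1.09, and a higher factor lowers a library's scaled CPM. What these differences have to do with the ribosomal protein share was not tested. Among the other 16, heart Treg replicates 2 and 3 (11.5 to 12.2%) lay below NDLN Tregs (16.4 to 17.5%) and within the spleen Treg range (11.2 to 14.1%), and heart Tconv replicate 3 (12.6%) lay below the spleen Tconv (16.8 to 23.2%) and NDLN Tconv (20.7 to 24.6%) libraries. MLN Treg replicate 3 (12.5%) lay below the 3 NDLN Treg libraries.

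**Figure D1:**
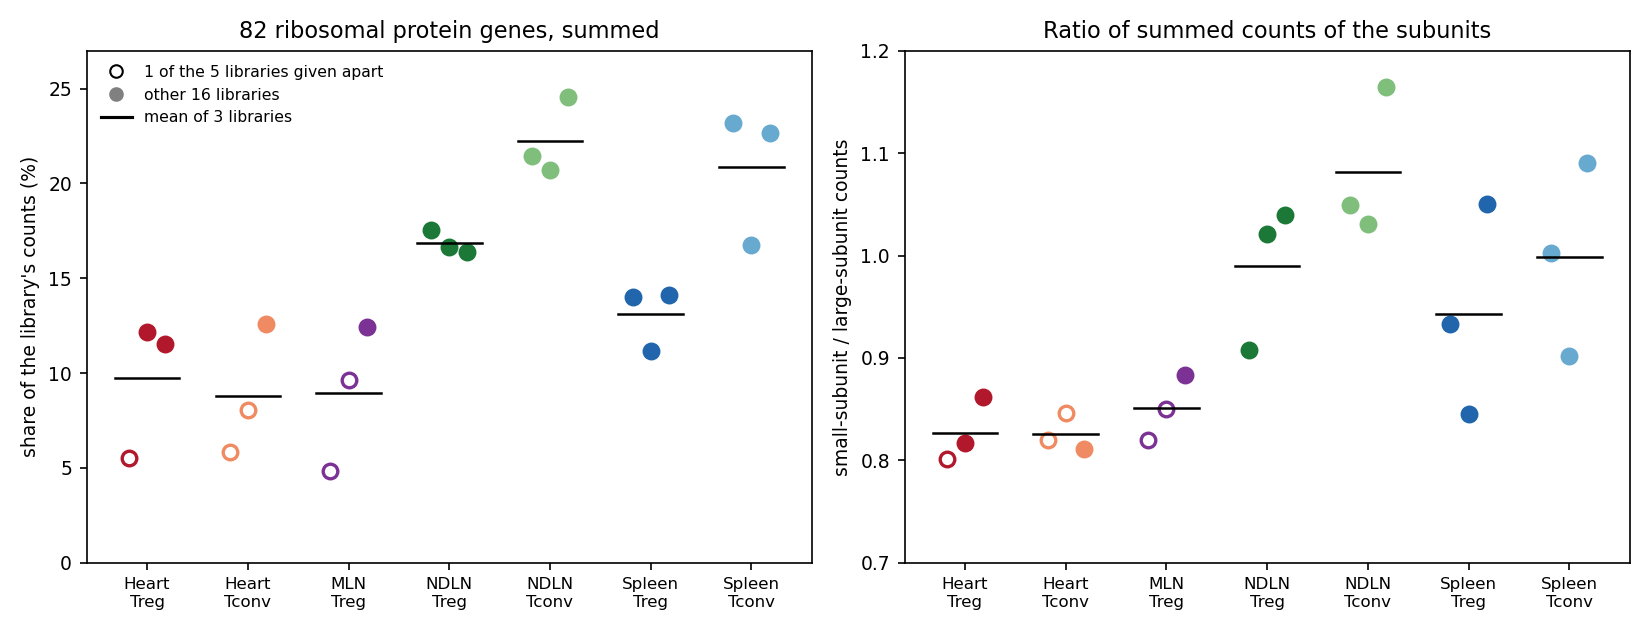
Share of each library's counts taken by the 82 ribosomal protein genes in percent (left) and ratio of summed small-subunit to summed large-subunit counts, the stalk counted with the large subunit (right), by group, with 1 point per library, open for the 5 libraries given apart, and a line at the mean of 3. Shares of heart and MLN libraries reach 12.6% at most while those of NDLN libraries start at 16.4%, and small-to-large ratios of heart libraries end at 0.862 while those of NDLN libraries start at 0.908.

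The balance between the subunits also differed by site. Small-subunit counts per large-subunit count (stalk included) were 0.801 to 0.862 in heart Tregs, 0.811 to 0.846 in heart Tconvs and 0.820 to 0.884 in MLN Tregs. The ratio was 0.908 to 1.04 in NDLN Tregs, 1.03 to 1.16 in NDLN Tconvs, 0.845 to 1.05 in spleen Tregs and 0.902 to 1.09 in spleen Tconvs. Heart libraries of either cell type lay below all NDLN libraries, and those of heart Tconvs below all spleen Tconv libraries, with or without the 5 libraries. This ratio was given no test.

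Single genes were compared as log2 fold changes from edgeR's quasi-likelihood test on all 14996 genes that passed a filter on low counts, and a gene is called at an adjusted p under 0.05. Of the 82, 80 passed the filter. Rpl3l and Rpl10l, paralogs known from muscle and testis, had 0 counts in each of the 21 libraries. Levels below are TMM-scaled CPM, given for replicates 1, 2 and 3 in that order.

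Of the 9 comparisons of groups, that of heart with NDLN Tconvs had the most members called. Of 80 genes, 46 were called lower in heart Tconvs and 0 higher, against 1.34% of all genes called lower. They were 23 of 32 small-subunit, 21 of 45 large-subunit and 2 of 3 stalk genes, and the median log2 fold change over the 80 was -1.79, against 0.48 over all genes tested. In 70 genes all 3 heart Tconv libraries lay below all 3 NDLN Tconv libraries, against 8.06% of all genes, and 72 had an unadjusted p under 0.05 and were lower, against 6.03%. The 46 do not hold without heart Tconv replicates 1 and 2: with the 5 libraries left out, 2 genes were called lower, Rplp1 (-1.64, SE 0.30, adjusted p = 0.045) and Rps27a (-2.21, SE 0.43, adjusted p = 0.049), against 0.0474% of all genes, while 65 were lower at an unadjusted p under 0.05, against 2.43% of all genes, and the median was -1.18. In that fit, over 18998 genes, heart Tconvs and MLN Tregs are 1 library each, assumed to vary like the other groups. Leaving out heart Tconv replicate 1 or 2 singly left 1 and 2 calls, against 0.109% and 0.103% of all genes, and leaving out replicate 3 gave 61, against 1.37%. Without NDLN Tconv replicate 2 or 3, 30 and 21 were left, against 0.784% and 0.449% of all genes.

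Small-subunit genes had the lowest median of the 3 classes there, -2.05. Rps27, a zinc-finger protein of the small subunit and the member with the most counts over the 21 libraries, had 1081, 1866 and 4812 CPM in heart Tconvs, against 9626, 12569 and 20221 in NDLN Tconvs. The groups did not overlap, and it fell by 2.45 (log2, SE 0.60, adjusted p = 0.029). Rps14, needed to mature the small subunit's RNA, had 1573, 2038 and 3199 CPM in heart Tconvs and 9943, 9572 and 12429 in NDLN Tconvs (log2 fold change -2.23, SE 0.43, adjusted p = 0.0085). In Rps14, as in Rps27, the highest heart library stayed under the lowest NDLN library. Rps19, mutated in human Diamond-Blackfan anaemia, had 1686, 2757 and 4406 CPM in heart Tconvs and 9794, 10323 and 13598 in NDLN Tconvs (-1.93, adjusted p = 0.017). Rps6, the substrate of the S6 kinases downstream of mTOR, had 1391, 1900.5 and 2633 CPM in heart Tconvs, against 4512, 5001 and 7397 in NDLN Tconvs (-1.51, adjusted p = 0.012), and Rps4x, an X-linked gene of another small-subunit protein, fell by 2.05 (adjusted p = 0.036). Rpsa, which is known also as the laminin receptor, did not pass: it had 1165, 1564 and 1892 CPM in heart Tconvs and 4197, 2431 and 2126 in NDLN Tconvs (-0.92, SE 0.32, adjusted p = 0.13).

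Among large-subunit genes the median was -1.73. Rpl39, a small protein in the wall of the exit tunnel, had the smallest adjusted p of the members: 219.6, 337 and 408 CPM in heart Tconvs, against 2064, 1576 and 2771 in NDLN Tconvs (-2.73, SE 0.51, adjusted p = 0.0075). Rpl23, which can also bind the p53 regulator Mdm2, had 412, 530.5 and 722 CPM in heart Tconvs and 2507, 1857 and 2261 in NDLN Tconvs (-1.99, SE 0.37, adjusted p = 0.0077). Rpl22, a protein at the surface of the subunit that developing mouse T cells depend on, had 109, 135 and 176 CPM in heart Tconvs, against 717, 718 and 839 in NDLN Tconvs (-2.44, SE 0.47, adjusted p = 0.0084). For each of these 3 the heart libraries lay below every NDLN library, heart replicate 3 included. Rpl10, which completes the large subunit, fell by 1.71 (adjusted p = 0.032). Rpl13, the large-subunit gene with the most counts, had a log2 fold change of -1.14 (adjusted p = 0.065). Rpl3, which shapes the peptidyl transferase centre, ran the other way without passing: 978, 1593 and 1393 CPM in heart Tconvs and 802, 1171 and 785 in NDLN Tconvs (0.52, SE 0.31, adjusted p = 0.34). Of the stalk genes, Rplp1 fell by 2.38 (adjusted p = 0.019) and Rplp2 by 1.69 (adjusted p = 0.041). Rplp0, the scaffold that holds them, had 1917, 2773 and 7027 CPM in heart Tconvs and 6426, 6353 and 6402 in NDLN Tconvs (-0.71, adjusted p = 0.36), and its groups overlapped through heart replicate 3.

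Scaling each library to its summed ribosomal protein counts asks which members moved relative to the others. For heart against NDLN Tconvs, 6 members were then called higher, among them Rpl3 (2.41), Rps2 (1.33), Rpl4 (1.23), Rplp0 (0.94) and Rps3 (0.92), and 5 lower, Rps27a (-1.32), Rpl36a (-1.28), Rps24 (-1.04), Rps15a (-1.0) and Rps7 (-0.95). Of all genes, 9.56% were called higher and 0.0667% lower under this scaling, so the members called higher are no larger a share than among all genes. This scaling moves the median of all genes in this comparison to 2.46, so these values stand relative to the family and not to the library. Under the usual scaling these named genes had negative fold changes except Rpl3.

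**Figure D2:**
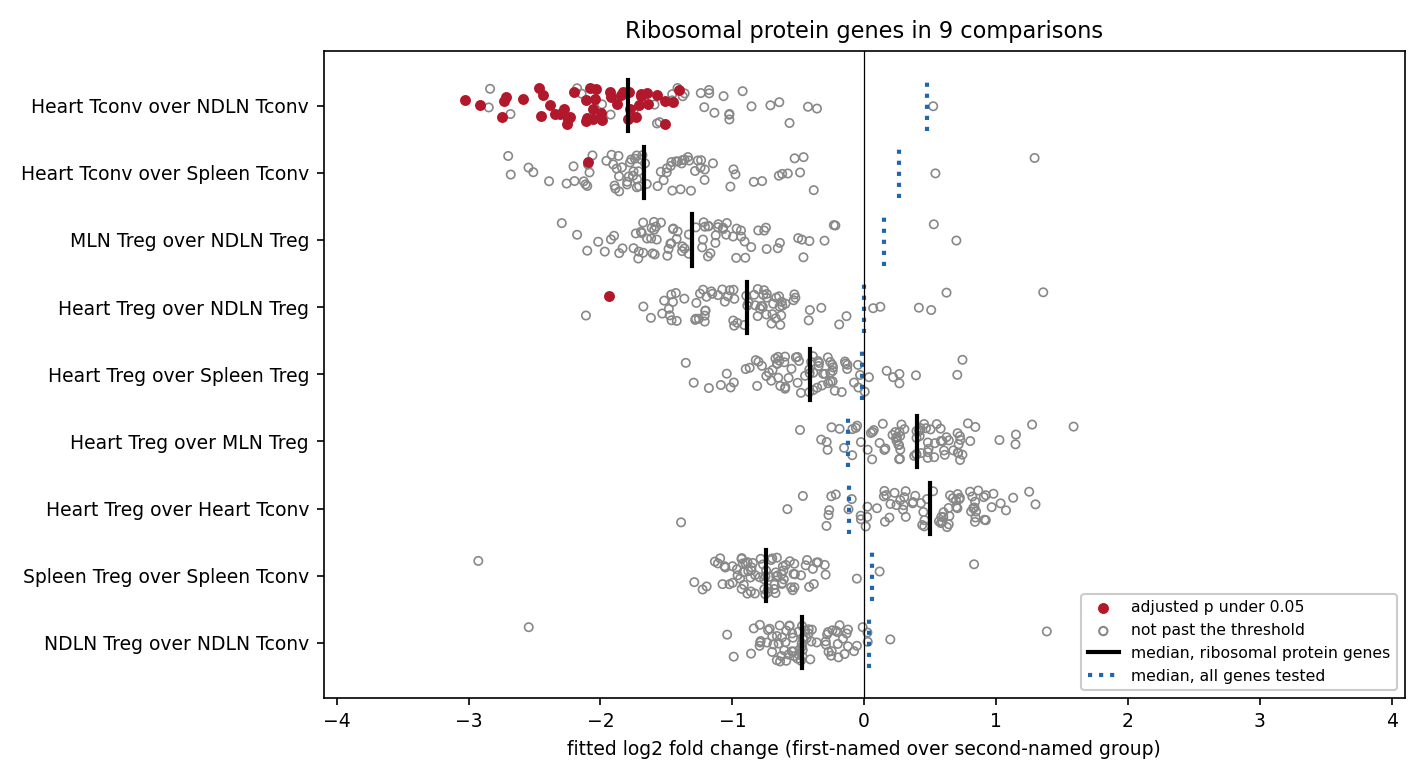
Fitted log2 fold change of each tested ribosomal protein gene in 9 comparisons (1 point per gene, red where the adjusted p is under 0.05), with black bars at the median of the members and dotted blue bars at the median of all genes tested. Medians run from -1.79 for heart over NDLN Tconvs to 0.50 for heart Tregs over heart Tconvs, and 7 points of genes at or near 0 counts in a group lie beyond the axis.

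Heart against spleen Tconvs gave a like median of -1.67, against 0.27 over all genes, but the single call was Rpl22, 1 of 80 against 0.167% of all genes called lower. Rpl22 had 109, 135 and 176 CPM in heart Tconvs and 721, 426 and 642 in spleen Tconvs, without overlap (-2.09, SE 0.46, adjusted p = 0.046). It is lost without heart Tconv replicate 1 or 2 (adjusted p = 0.28 and 0.20) or without spleen Tconv replicate 1 or 3 (0.16 in either case). At an unadjusted p under 0.05 stood 68 genes, all lower, against 5.43% of all genes, and in 68 the libraries did not overlap, against 9.97%. DESeq2 called 58 lower, against 3.84% of all genes, and limma-voom 6, against 0.44%. With the replicate number as a block, edgeR called 44 lower, against 196 of all 14996 genes. Without the 5 libraries edgeR called 0, with 61 lower at an unadjusted p under 0.05, against 2.04% of all genes, and a median of -1.0. Leaving out heart Tconv replicate 3, whose share of 12.6% is the highest of its group, gave 46 calls, against 0.77% of all genes, and leaving out spleen Tconv replicate 2, the lowest of its group at 16.8%, gave 6, against 0.169%.

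Tregs were set against each other by site. Heart against NDLN Tregs had a median of -0.89, against 0.00 over all genes, and 62 of 80 genes had all heart libraries below all NDLN libraries, against 11.1% of all genes. The single call was Rps27l, against 0.213% of all genes called lower, and 35 genes had an unadjusted p under 0.05, all lower (8.82% of all genes). DESeq2 called 5 lower, against 6.48% of all genes, limma-voom 3, against 1.71%, and edgeR without the filter on low counts 20, against 0.569%. Rps27l, a paralog of Rps27 that is known as a target of p53, had 198, 268 and 175 CPM in heart Tregs, against 442, 938 and 1066 in NDLN Tregs (-1.93, SE 0.42, adjusted p = 0.036). The call rests on several libraries: leaving out any heart Treg library or NDLN Treg replicate 2 or 3 raised the adjusted p to between 0.076 and 0.18, and it was 0.096 without the 5 libraries. Without the 5, edgeR called 0 of 80, with 36 lower and 1 higher at an unadjusted p under 0.05, against 4.99% and 3.5% of all genes, and a median of -0.53. Without heart Treg replicate 1 alone the median was -0.55, with 10 lower at an unadjusted p under 0.05, against 6.33% of all genes. Rps27 itself had 997, 3376 and 3254 CPM in heart Tregs and 6818, 7934 and 8650.1 in NDLN Tregs, without overlap (-1.62, SE 0.58, adjusted p = 0.25).

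Heart against spleen Tregs gave 0 calls by edgeR (0.0533% of all genes were called lower), with 3 members lower and 2 higher at an unadjusted p under 0.05, against 7.38% and 4.28% of all genes. DESeq2 called 2 lower, against 5.91% of all genes, and limma-voom 0. The median was -0.41, against -0.02 over all genes, and without the 5 libraries it was -0.05, with 5 members higher and 6 lower at an unadjusted p under 0.05, against 2.35% and 4.21% of all genes. It was also -0.05 without heart Treg replicate 1 alone, and -0.68 and -0.64 without replicate 2 or 3. The smallest p belonged to Rps27l, with 198, 268 and 175 CPM in heart Tregs and 407, 391 and 837 in spleen Tregs (-1.35, SE 0.41, adjusted p = 0.29), and to Rpsa, with 1599, 2995 and 2960.0 CPM in heart Tregs and 1705, 1601 and 1199 in spleen Tregs (0.75, SE 0.31, adjusted p = 0.41). In Rps27l all heart libraries lay under all spleen libraries. In Rpsa heart replicates 2 and 3 lay above every spleen library and replicate 1 among them.

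Tregs of the draining node were set against those of the non-draining node. MLN against NDLN Tregs had a median of -1.30, against 0.15 over all genes, with 0 calls by edgeR (0.0% of all genes were called lower, 0 of 14996) and 60 members lower and 1 higher at an unadjusted p under 0.05 (lower: 4.05% of all genes). DESeq2 called 17 lower, against 1.87% of all genes, and limma-voom 1, against 0.0734%. In 65 genes the MLN libraries lay below all NDLN libraries, against 7.2% of all genes. The smallest p were those of Rps14, with 1022, 2828 and 3081 CPM in MLN Tregs and 6084, 7821 and 8754 in NDLN Tregs (-1.71, SE 0.42, adjusted p = 0.36), and of the large-subunit gene Rpl37, with 222, 763 and 785 CPM in MLN Tregs, against 1898, 1700.4 and 1725 in NDLN Tregs (-1.59, SE 0.41, adjusted p = 0.36). With MLN Treg replicate 3 alone, when the 5 libraries were left out, the median was -0.66 and 41 members were lower at an unadjusted p under 0.05, against 0.937% of all genes, with 0 called by edgeR. Without MLN Treg replicate 1 alone, 33 were lower at that p, against 1.3% of all genes. MLN Treg libraries also held 342, 477 and 29910 CPM of erythroid markers, replicate 3 the most, and NDLN Tregs 1.43 to 14.2.

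Heart against MLN Tregs gave a median of 0.40, against -0.12 over all genes, with 0 calls by edgeR (0.0467% of all genes were called higher), 2 members higher at an unadjusted p under 0.05 (3.14% of all genes), 1 called lower by DESeq2 (5.29% of all genes) and 0 by limma-voom. The 2 were Rpsa, with 1599, 2995 and 2960.0 CPM in heart Tregs and 1013, 1558 and 1639.9 in MLN Tregs (0.84, SE 0.31, adjusted p = 0.50), and Rps12, with 96.1, 369.7 and 430.0 CPM in heart Tregs and 63.1, 139 and 202 in MLN Tregs (1.15, SE 0.48, adjusted p = 0.50). In both genes the libraries of the groups overlapped through heart replicate 1. Without the 5 libraries the median was 0.15. Single libraries moved it: it was -0.00053 without MLN Treg replicate 1, 0.13 and 0.22 without heart Treg replicate 2 or 3, 0.75 without heart Treg replicate 1 and 0.88 without MLN Treg replicate 3. Without heart Treg replicate 1, 26 members were higher at an unadjusted p under 0.05, against 3.56% of all genes, and without MLN Treg replicate 3, 24, against 2.92%, with 0 called in either case.

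Within a site, Tregs were set against Tconvs. Spleen Tregs lay below spleen Tconvs over the family, with a median of -0.75 against 0.06 over all genes and 46 of 80 genes without overlap, against 5.67% of all genes. EdgeR called 0 (0.00667% of all genes were called lower), with 15 lower at an unadjusted p under 0.05 (2.71% of all genes), and DESeq2 and limma-voom called 0 each. Without the 5 libraries, none of them from spleen, 4 large-subunit genes were called lower, against 0.0421% of all genes, and 62 were lower at an unadjusted p under 0.05, against 1.99%. The 15 became 25 without spleen Tconv replicate 2 and 8 without replicate 1, against 2.68% and 2.12% of all genes. Among the 4 were Rpl13 (-0.98, adjusted p = 0.042), Rpl14 (-1.09, adjusted p = 0.042) and Rpl21 (-1.27, adjusted p = 0.049), and with all libraries the adjusted p of these was 0.62. Rpl14 had 999, 845 and 923 CPM in spleen Tregs and 2516, 1388 and 2064 in spleen Tconvs, and Rpl13 had 5212, 3895 and 3959 in spleen Tregs and 10739, 6575 and 8774 in spleen Tconvs. In each the lowest Tconv library, replicate 2, stood above the highest Treg library. Reads of Rpl21 and Rpl14 may be split with near-identical copies: pseudogenes named for them held 74.2 and 34.5 counts per 100 counts of the gene.

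NDLN Tregs against NDLN Tconvs had a median of -0.47, against 0.04 over all genes, and 45 of 80 genes lay lower without overlap, against 4.16% of all genes. EdgeR called 0 (0.02% of all genes were called lower), with 3 members lower and 2 higher at an unadjusted p under 0.05, against 3.32% and 8.26% of all genes. Limma-voom called 0, and DESeq2 called Rps4l and Rps27l higher, against 8.01% of all genes. Without the 5 libraries 44 were lower at an unadjusted p under 0.05, against 2.53% of all genes, and the median was -0.50. Rps27l had the opposite sign to the family's median: it had 442, 938 and 1066 CPM in NDLN Tregs and 245, 329 and 361 in NDLN Tconvs, without overlap (1.39, SE 0.41, adjusted p = 0.23). Rps4l, annotated as a pseudogene, had 13.1, 14.1 and 0 CPM in NDLN Tregs and 0 in each NDLN Tconv library.

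The pair Rps27 and Rps27l, which encode close paralogs with coding regions of 252 bases each, could be read within a library. Rps27l had 7.55 to 13.6 counts per 100 of Rps27 in spleen Tregs, against 1.82 to 3.75 in spleen Tconvs, and 6.48 to 12.3 in NDLN Tregs, against 1.79 to 2.62 in NDLN Tconvs. In both organs every Treg library lay above every Tconv library. By replicate, the ratio in heart was 19.8, 7.93 and 5.36 in Tregs and 8.78, 8.01 and 2.01 in Tconvs, which overlapped. In MLN Tregs it was 23.1, 23.9 and 11.1. In these groups the 5 libraries given apart had the highest ratios. Outside the 5, heart Treg replicates 2 and 3 lay above heart Tconv replicate 3. How reads shared by Rps27 and its retrogene copy Rps27rt were counted is not given in the sources used here. In the pair of Rpl22 and its paralog Rpl22l1, which mouse Rpl22 is known to repress, Rpl22l1 had 33.5 to 105 counts per 100 of Rpl22 in heart Tregs and 41.8 to 198 in heart Tconvs. It had 24.6 to 135 in MLN Tregs, 124 to 209 in NDLN Tregs, 165 to 266 in NDLN Tconvs, 114 to 184 in spleen Tregs and 150 to 193 in spleen Tconvs. Heart Tregs lay below both NDLN Tregs and spleen Tregs in that ratio.

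**Figure D3:**
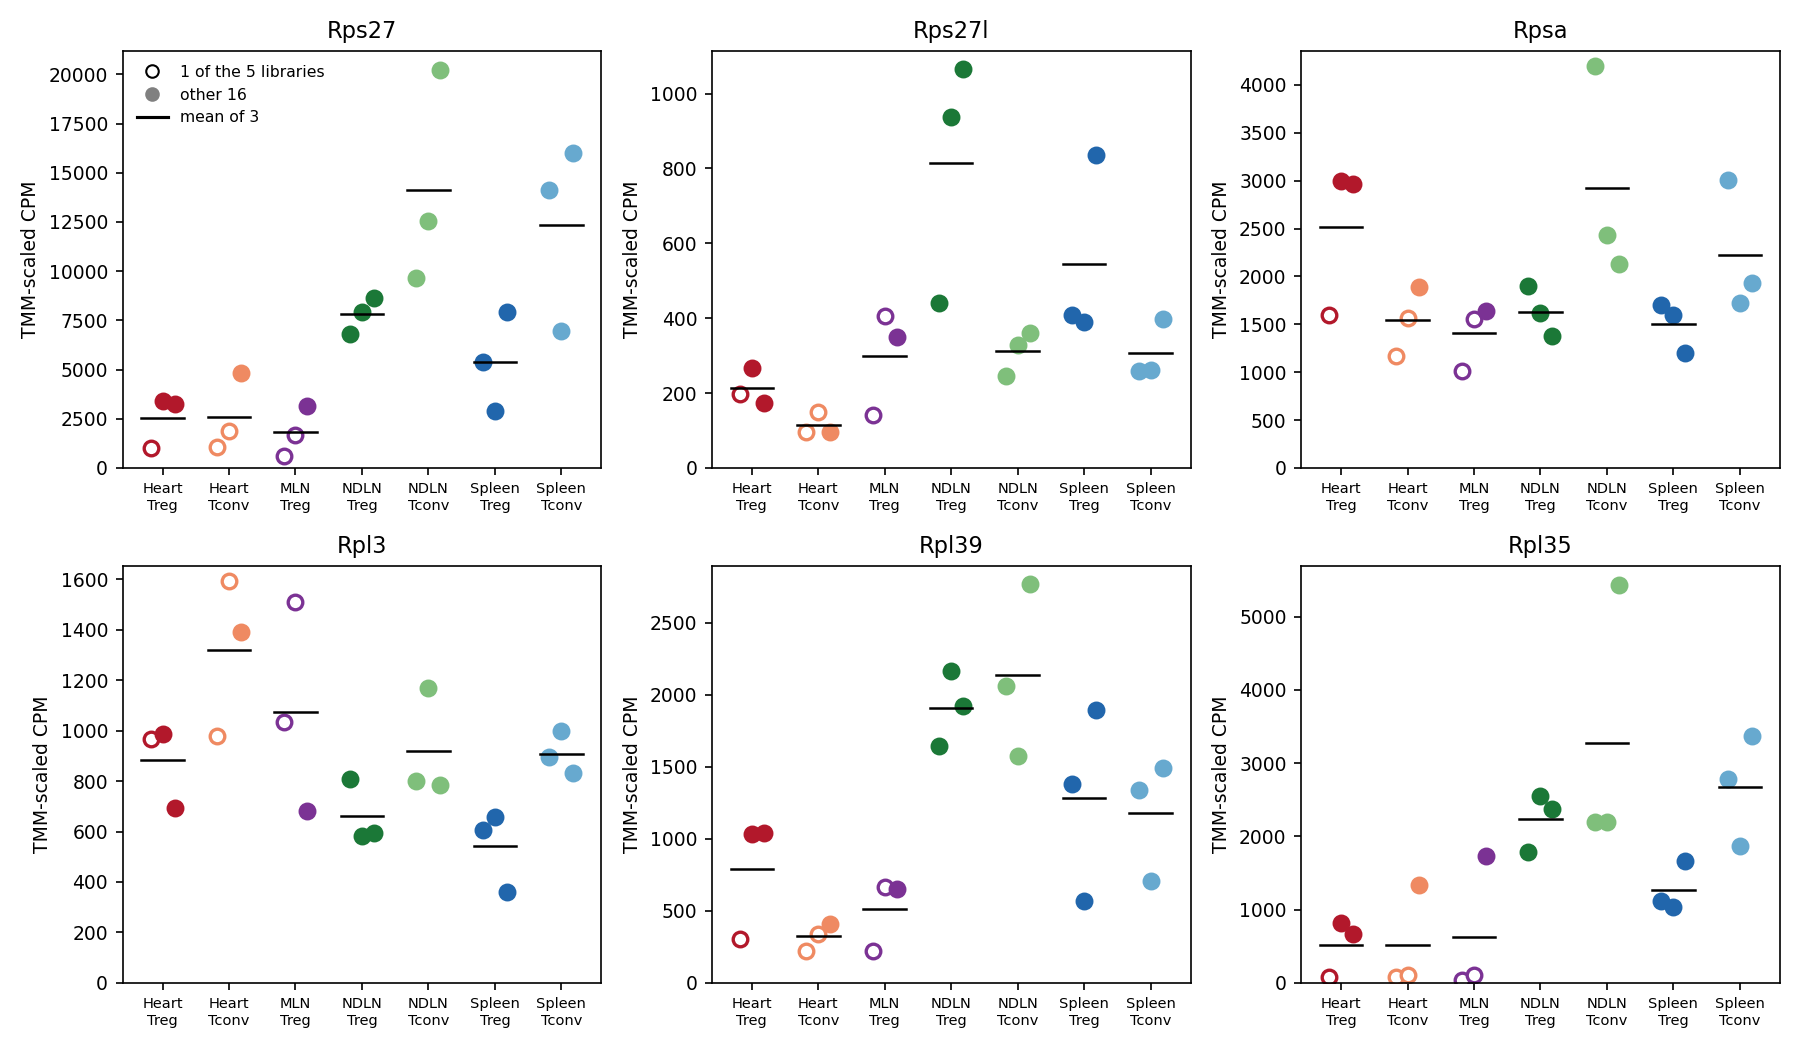
TMM-scaled CPM of 6 ribosomal protein genes by group, 1 point per library (open for the 5 libraries given apart), with a line at the mean of 3. Rps27l is higher in NDLN Treg than in NDLN Tconv libraries while Rps27 is lower, Rpl39 is low in all heart Tconv libraries, and Rpl35 stays at or below 113 CPM in the 5 open libraries.

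In heart the fitted values ran the other way. Heart Tregs against heart Tconvs had a median of 0.50, against -0.12 over all genes, with 67 of 80 fitted values positive (43.7% of all genes) and 0 calls by edgeR (0.0467% of all genes were called higher). At an unadjusted p under 0.05 stood 6 higher, against 2.54% of all genes, and 1 lower. DESeq2 called 1 lower, against 4.95% of all genes, and limma-voom 0. The smallest p were those of Rpl39, with 304, 1031 and 1039 CPM in heart Tregs and 219.6, 337 and 408 in heart Tconvs (1.30, SE 0.48, adjusted p = 0.60), and Rpl22, with 125, 383 and 411 CPM in heart Tregs and 109, 135 and 176 in heart Tconvs (1.13, SE 0.45, adjusted p = 0.60). Replicates 2 and 3 of the Tregs lay above all heart Tconv libraries, and replicate 1 lay among them. The shares of counts outside the 5 libraries did not run that way. They were 12.2 and 11.5% in heart Treg replicates 2 and 3, against 12.6% in heart Tconv replicate 3. Without the 5 libraries the median of the fitted values was 0.18. With 1 library left out it was 0.22, 0.32 and 0.25 without heart Treg replicate 2, heart Treg replicate 3 and heart Tconv replicate 1, and 0.84 and 0.96 without heart Treg replicate 1 and heart Tconv replicate 3. In the last 2 fits 31 and 36 members were higher at an unadjusted p under 0.05, against 3.03% and 2.74% of all genes, with 0 called.

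The difference of that gap between sites was tested itself. The Treg-to-Tconv gap in heart minus that in spleen had a median of 1.18 over the members, against -0.31 over all genes, with 78 of 80 values positive (42.6% of all genes). EdgeR called 0 (0.0% of all genes were called higher, 0 of 14996), 20 members were higher at an unadjusted p under 0.05 (1.66% of all genes), DESeq2 called 1 lower (4.57% of all genes) and limma-voom 0. The gap in heart minus that in NDLN had a median of 0.86, against -0.37, with 74 positive values (41.7% of all genes). EdgeR called 0 there (0.0% of all genes were called higher, 0 of 14996), 10 members were higher (1.84% of all genes) and 1 lower at an unadjusted p under 0.05. DESeq2 called 1 higher and 1 lower, against 1.76% and 7.41% of all genes, and limma-voom 0. Both gaps share the heart libraries. Rpsa had the smallest p in each, with 1.27 against spleen (SE 0.44, adjusted p = 0.60) and 1.55 against NDLN (SE 0.45, adjusted p = 0.37), and DESeq2 called the second (adjusted p = 0.014). Its levels were 1599, 2995 and 2960.0 CPM in heart Tregs and 1165, 1564 and 1892 in heart Tconvs, 1903, 1617 and 1379 in NDLN Tregs and 4197, 2431 and 2126 in NDLN Tconvs, and 1705, 1601 and 1199 in spleen Tregs and 3002, 1724 and 1934 in spleen Tconvs. Next were Rplp2 against spleen (1.54, adjusted p = 0.60) and Rpl23 against NDLN (1.25, adjusted p = 0.40). Without the 5 libraries the medians were 0.89 and 0.62, with 41 and 26 members higher at an unadjusted p under 0.05, against 1.02% and 0.984% of all genes, and 0 called. With single libraries left out, these counts ran from 1 without heart Treg replicate 2 or heart Tconv replicate 1 to 68 without heart Tconv replicate 3 against spleen (2.6% of all genes), and to 49 without that library against NDLN (2.29%), where the median was 1.37.

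The members differed in how low they lay in the 5 libraries, which is given as a description since the low summed share was known when those libraries were set apart. In 52 of 80 genes each of the 5 lay below each of the 16 (22 of 32 small-subunit, 29 of 45 large-subunit and 1 of 3 stalk genes, Rplp1), against 1.88% of all genes. Over the 76 members with a mean of at least 100 CPM, the median of the 5 divided by the median of the 16 was 0.263 in the middle of the family. Rpl35, a protein beside the exit tunnel, had the lowest ratio, 0.0448: its level was 44.1 to 113 CPM in the 5, against 661 to 5428 in the 16. Rpl12, at the base of the stalk, followed with 0.0488, then Rpl23a with 0.0752. Rpl3 was the single one of the 76 above 1, at 1.30. Reads of Rpl23a may be split with copies, since its pseudogenes held 81.1 counts per 100 of its own.

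The composition of the family shows the same genes. Rpl35 took 0.123 to 0.18% of all ribosomal protein counts in the 5 libraries and 0.534 to 1.76% in the 16, while Rpl3 took 1.82 to 2.88% in the 5 and 0.246 to 1.14% in the 16. Across the 21 libraries, and among members with a mean of at least 100 CPM, the share of Rpl35, Rpl23a and Rpl12 varied most (SD of the log2 share 1.27, 1.23 and 1.19). Rps23, which lies at the decoding centre, and Rps18 and Rps15, both of the head of the small subunit, varied least (0.141, 0.144 and 0.163). The 10 genes with the highest mean share together took 28.7 to 35.7% of the family's counts in each library.

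**Figure D4:**
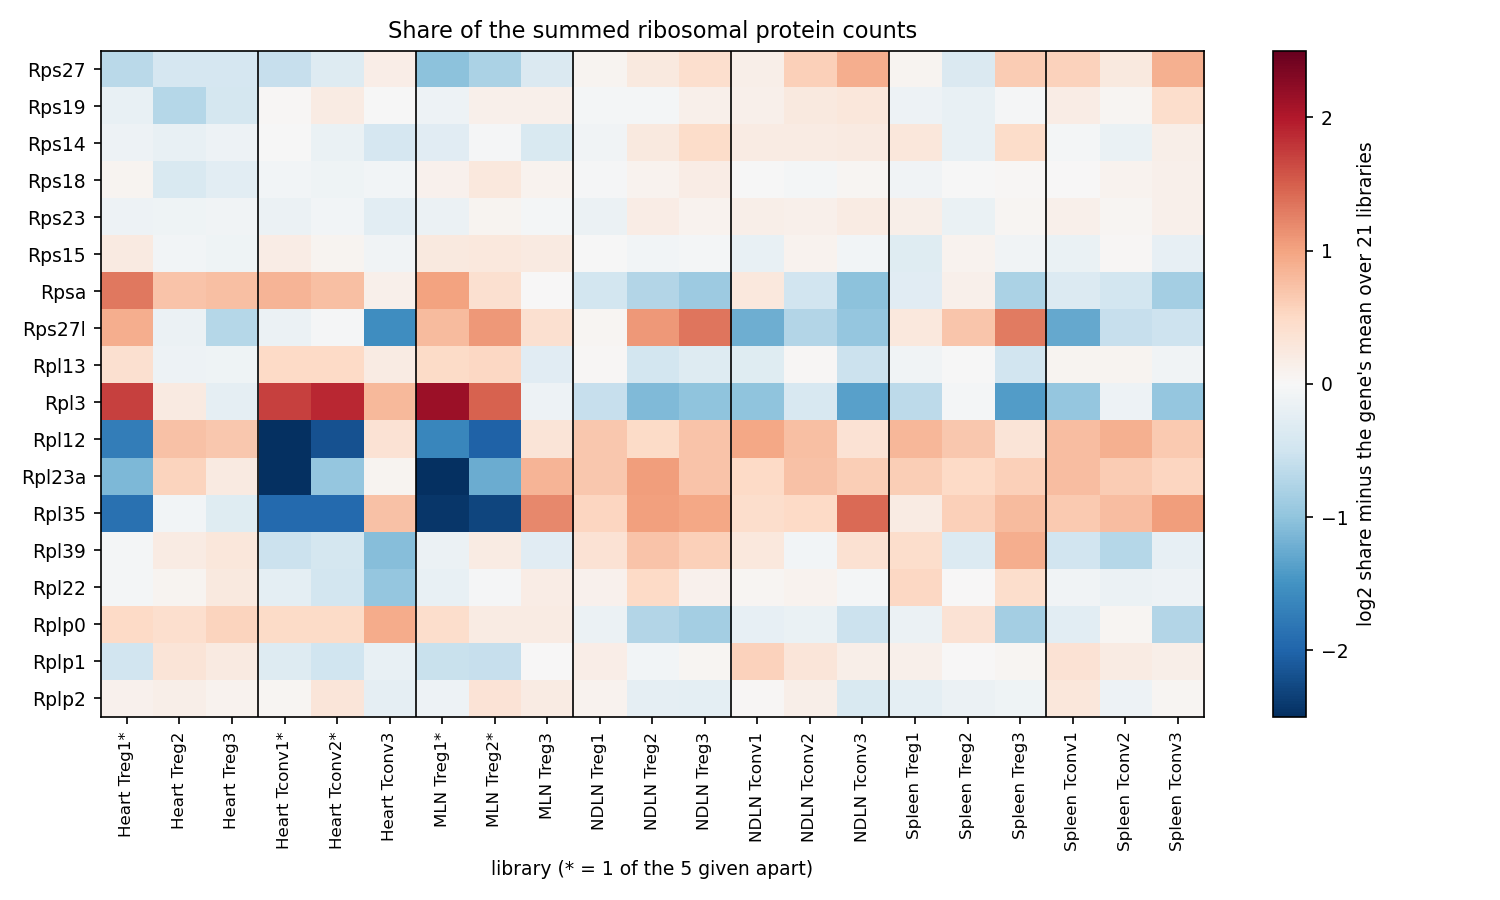
Share of each library's summed ribosomal protein counts taken by 18 named genes, as the log2 share minus the gene's mean over the 21 libraries (red above, blue below, colours clipped at the ends of the scale), with libraries ordered by group and the 5 given apart marked by asterisks. Rpl12, Rpl23a and Rpl35 are blue and Rpl3 red in the marked libraries, while the rows of Rps15, Rps18 and Rps23 stay near white.

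In 5 of the 6 comparisons between sites, the shorter members had the lower fold changes. Across the 78 members with a known coding length, the log2 fold change between sites correlated with that length, with Spearman's rho of 0.60 for heart over NDLN Tregs, 0.57 for heart over spleen Tregs, 0.58 for MLN over NDLN Tregs, 0.52 for heart over NDLN Tconvs and 0.54 for heart over spleen Tconvs. For heart over MLN Tregs it was -0.03. For the ratio of the 5 libraries to the 16 it was 0.49, and for Tregs over Tconvs of the same organ -0.24 in heart, -0.03 in spleen and -0.09 in NDLN. These are correlations across genes that share libraries and are not independent replicates. Genes outside the family moved with length too: for heart over NDLN Tregs, the 11 members under 300 bases had a median of -1.22, against -0.81 in 351 other genes of that length, and the 11 members of 750 to under 1500 bases had -0.19, against 0.34 in 3950 others. In the spleen comparison of Tregs with Tconvs the medians at these lengths were -0.71 and -0.73 in members and 0.00 and 0.16 in other genes. What part coding length has in the site differences was not tested.

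**Figure D5:**
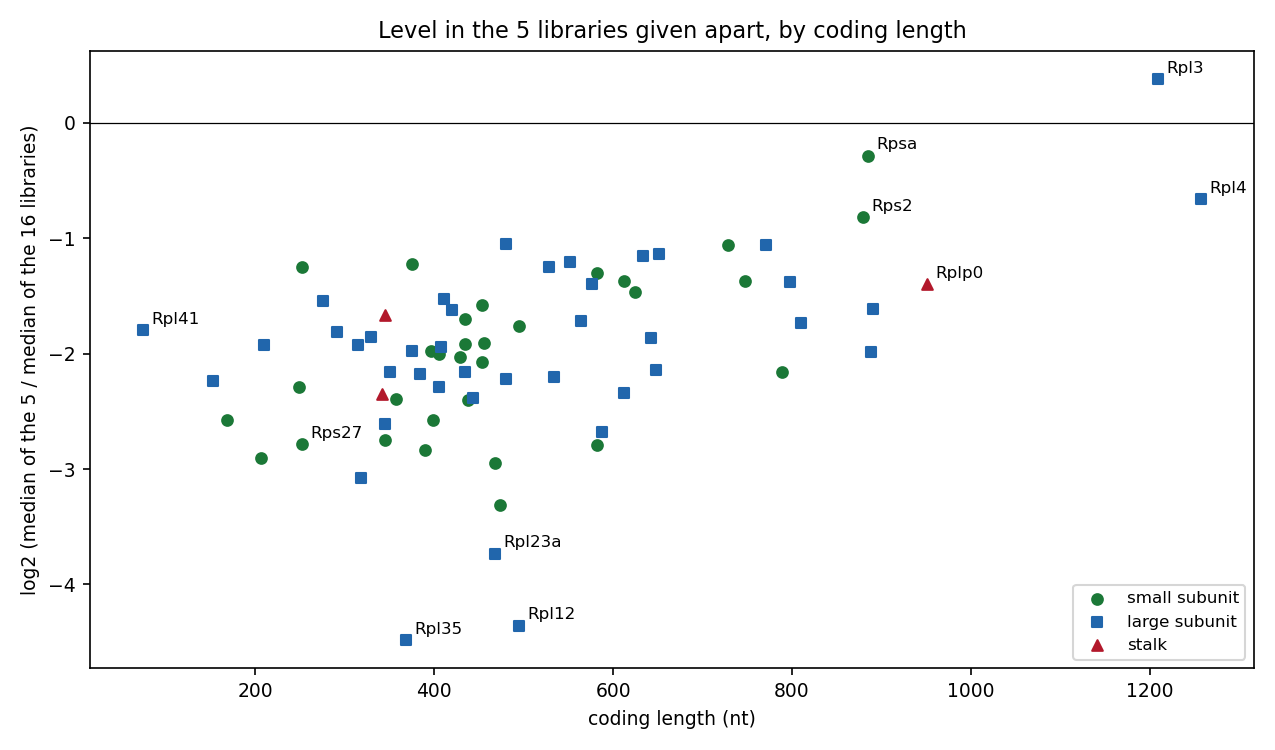
Log2 of the median level in the 5 libraries given apart over the median in the other 16, by coding length in bases, for ribosomal protein genes with a mean of at least 100 CPM and a known coding length, by subunit. Rpl35 and Rpl12 lie lowest, Rpl3 alone lies above 0, and the long genes Rpsa, Rpl4 and Rps2 follow it at ratios of 0.821, 0.631 and 0.568.

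Levels spanned a wide range. In CPM, uncorrected for length, Rps27, Rps19, Rps14 and Rpl13 had the highest means over the 21 libraries, at 6664, 5846, 5609 and 5433 CPM. Per kilobase of coding sequence Rpl41, the shortest member, led with 49878 CPM, ahead of Rps27 with 26446 and Rps29 with 16634. At the low end, Rpl13a had 4.37 to 38.6 CPM, Rpl24 had 0 to 26.9, Rpl39l had 0 to 14.2 and Rps4l had 0 to 51.6. Rpl13a and Rpl24, annotated as protein-coding, had 8171 and 2769 counts over the 21 libraries. How reads shared with copies were counted is not given, so their levels are uncertain. Whether these low counts reflect low expression was not tested. Rpl6l, annotated as a pseudogene, had 34.5 to 201 CPM. The counts of 59 members can be touched by pseudogenes named for them: in 14 of these the pseudogenes held more than 10 counts per 100 of the gene's own, and in Rpl17 they held 174, so its level is uncertain.

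Genes of the same machinery outside the symbol rule were followed as lists. Of 8 other ribosomal protein genes, 2 were called lower in heart than in NDLN Tconvs, against 1.34% of all genes: Rps3a1, a small-subunit protein, with 1417, 1738 and 2546 CPM in heart Tconvs, against 6879, 4651 and 6982 in NDLN Tconvs (-1.70, SE 0.36, adjusted p = 0.014), and Rps27rt, with 238, 287 and 669 CPM in heart Tconvs, against 1824, 1610.1 and 4156 in NDLN Tconvs (-2.67, SE 0.57, adjusted p = 0.016). In both the groups did not overlap, and the list's median was -1.57. Rack1, a signalling scaffold on the small subunit, had -0.97 (adjusted p = 0.11), Fau, which encodes a ubiquitin-like fusion with a small-subunit protein, -1.43 (adjusted p = 0.21), and Rpl22l1 -3.43 (adjusted p = 0.067).

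The list of elongation factors and other TOP messenger RNAs (16 of 16 tested) had 2 members called lower in heart than in NDLN Tconvs, against 1.34% of all genes. Naca, of the complex that binds nascent chains, had 359, 356 and 725 CPM in heart Tconvs and 1549, 1547 and 1861 in NDLN Tconvs (-1.78, SE 0.38, adjusted p = 0.014). Eef1b2, an exchange factor of elongation factor 1, had 304, 364 and 761 CPM in heart Tconvs and 2055, 1205 and 1932 in NDLN Tconvs (-1.86, SE 0.47, adjusted p = 0.034). The list's median was -0.52 there, 11 of 16 values being negative, against -1.79 in the ribosomal protein genes. For heart over spleen Tregs and over NDLN Tregs its medians were 0.13 and -0.01, and for Tregs over Tconvs -0.34 in spleen and -0.30 in NDLN. Those were nearer to 0 than the medians of the ribosomal protein genes in each of these 5 comparisons.

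Ribosome biogenesis genes (18 of 18 tested) had positive medians between Tconvs of heart and of the lymphoid organs, as had all genes tested, without a call. EdgeR called 0 of them in each of the 9 comparisons of groups, with at most 3 at an unadjusted p under 0.05 in any of them, and DESeq2 called at most 2. Their medians were 0.74 for heart over spleen Tconvs and 0.73 for heart over NDLN Tconvs, with 13 and 12 of 18 values positive. Over all genes the medians were 0.27 and 0.48. Genes outside the ribosomal protein family with 750 to under 1500 coding bases had 0.66 and 0.86. Nop56, a core protein of the particles that methylate ribosomal RNA, had 229, 198 and 213 CPM in heart Tregs and 55.1, 79.9 and 27.5 in spleen Tregs, without overlap (1.98, SE 0.65, adjusted p = 0.37). Of 14 genes of translation control, 0 were called by edgeR in these comparisons, with at most 2 at an unadjusted p under 0.05, and DESeq2 called at most 2. With all libraries, the shares of all genes given above per direction ran from 2.54% to 8.82% at that p by edgeR. By DESeq2 they ran from 1.87% to 8.01%. No reading is drawn from list counts this small. Atf4, the transcription factor of the integrated stress response, had 482, 392 and 483 CPM in heart Tregs, against 175, 67.8 and 43.4 in spleen Tregs (2.24, SE 0.53, adjusted p = 0.11) and 202, 82.9 and 46.3 in NDLN Tregs (2.03, SE 0.53, adjusted p = 0.091). All heart libraries of Atf4 lay above all spleen and NDLN Treg libraries.

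Nuclear genes of the mitochondrial ribosome (77 of 78 tested) were the nearest set for comparison. In heart over NDLN Tconvs 5 were called lower, against 1.34% of all genes, and the median was -0.64, led by Mrps33 with 49.1, 43.5 and 71.2 CPM in heart Tconvs and 242, 298 and 430.3 in NDLN Tconvs (-2.56, SE 0.43, adjusted p = 0.0043). In heart over NDLN Tregs 2 were called lower, against 0.213% of all genes, Mrps14 (-2.33, SE 0.40, adjusted p = 0.010) and Mrpl42 (-2.41, SE 0.42, adjusted p = 0.011), and the median was -1.0, beside -0.89 in the cytosolic genes. In NDLN Tregs over NDLN Tconvs the list's median was 0.17, against 0.04 over all genes, with 55 of 77 values positive. The cytosolic genes had -0.47 there, with 75 of 80 negative (42.3% of all genes).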

How the data were processed

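Sequencing read counts per gene were deposited by the authors as 1 table of whole-number counts, not normalized, for 21 libraries in 7 groups of 3, and the table held 0 columns left unused. The build was mm10 and HTSeq 0.6.0, HISAT2 and CASAVA 1.8.2 were used, per the submitters' processing notes. Not given in the sources used here are the gene annotation, whether strand was used, and how multiply mapped reads were handled. Gene names in 26 rows had turned into dates and were left as they stood, and 49412 of 49510 identifiers were found in GENCODE M21.

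The members, lists and tests were chosen with earlier results of these data known. EdgeR 4.0.16 in R 4.3.3 (TMM scaling, filterByExpr with a minimum count of 10 and total of 15, which left 14996 genes, robust quasi-likelihood F-test, Benjamini-Hochberg adjustment over all genes tested) was fitted to all 21 libraries with a coefficient per group. Standard errors were derived from the fold change and its F value. Levels (CPM) are counts per 1000000 of the TMM-scaled library total, except sums of cell markers, which use the unscaled total. Alternatives were other size factors, scaling to summed ribosomal protein counts, no filter, DESeq2 1.42.0, limma-voom (limma 3.58.1), a replicate block, the compared groups alone, and leaving out the 5 libraries or each replicate. Scripts were tested on simulated counts, and tables and figures were made with Python 3.11.15, pandas 2.3.3, scipy 1.17.1 and matplotlib 3.10.9.

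Depth was 14515387 to 28323649 counts a library, and Wilson 95% intervals of a library's ribosomal protein share reach 0.00989 to 0.0222 percentage points to either side, for counting error only. Coding length is that of the principal transcript in GENCODE M21. Start-site windows and promoters came from RefSeq (GRCm38.p6) and were matched by symbol. Named members were the highest and lowest by level, up to 4 called in each direction of a comparison by adjusted p or else the 2 with the smallest unadjusted p, the most and least variable in share, the stalk genes, the paralog pairs, and Rpsa and Rps6, with up to 3 from each other list. Genes named for a call without the 5 libraries or under ribosomal protein scaling, for low levels in those libraries, for pseudogene counts or for a sequence feature were chosen after their values were seen. A few genes that these rules name are not reported here.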

Additional observations from a re-analysis of the deposited data

How the results depend on the processing

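The limits are the 3 libraries a group, of which heart Tconvs and MLN Tregs keep 1 each without the 5 libraries given apart, and a spread shared over all groups. Of the alternative counts of called genes, 118 stayed within 1.5 times the count reported, 25 were larger, 22 smaller and 1 reversed. Most of the 118 belong to comparisons with 0 calls that again gave 0, so this tally does not measure how stable the calls are. Of the medians over the family, 160 were labelled as within the spread and 6 as moved. The label is a loose one, since medians that fell to near 0 are among the 160. For heart over NDLN Tconvs (46 called), scaling to summed ribosomal protein counts reversed the balance with 11 called, 6 of them higher; the count was 2 without the 5 libraries, 2 with the compared groups alone, and 1 to 61 with a replicate left out: 1 without heart Tconv replicate 1, 2 without replicate 2, 61 without replicate 3, 30 without NDLN Tconv replicate 2 and 21 without replicate 3. DESeq2 called 67 lower there and the block 57, against 5.25% and 1.78% of all genes called lower. DESeq2 also called 1 higher, Rps4l, against 1919 of 14996 genes. For heart over spleen Tconvs (1 called), no filter gave 61 (0.63% of all genes called lower), DESeq2 58 (3.84%), limma-voom 6 (0.44%), scaling to ribosomal protein counts 0, the compared groups alone 0, without the 5 libraries 0, and leaving out a replicate 0 to 46. For heart over NDLN Tregs (1 called), no filter gave 20 (0.569% of all genes called lower), DESeq2 5 (6.48%), limma-voom 3 (1.71%), and RLE size factors, ribosomal protein scaling, the compared groups alone and leaving out the 5 libraries 0 each, with 0 to 1 on leaving out a replicate. With 0 called by edgeR, MLN over NDLN Tregs had 42 without the filter (0.411%), 17 by DESeq2 (1.87%) and 1 by limma-voom (0.0734%); heart over spleen Tregs had 2 without the filter (0.332%) and 2 by DESeq2 (5.91%); heart over MLN Tregs and heart Tregs over heart Tconvs had 1 each by DESeq2, Rpl39l (5.29% and 4.95%). Spleen Tregs over spleen Tconvs had 4 without the filter (0.128%) and 4 without the 5 libraries (0.0421%), and NDLN Tregs over NDLN Tconvs 2 without the filter (0.177%) and 2, called higher, by DESeq2 (8.01%). The gap in heart minus that in spleen had 4 without the filter (0.0679% of all genes called higher) and 1 by DESeq2, and the gap in heart minus that in NDLN 5 (0.117%) and 2. Scaling to ribosomal protein counts, which shifts the median of all genes by -0.95 to 1.98, brought family medians to -0.06 for MLN over NDLN Tregs, 0.03 for spleen Tregs over Tconvs, 0.02 for NDLN Tregs over Tconvs, -0.06 for heart over spleen Tconvs, -0.07 for heart over NDLN Tconvs and 0.04 for the gap against spleen, by construction of that scaling. The remaining family medians under ribosomal protein scaling were -0.02 for heart over NDLN Tregs, -0.03 for heart over spleen Tregs and 0.07 for heart over MLN Tregs. They were 0.15 for heart Tregs over heart Tconvs and 0.05 for the gap against NDLN. RLE size factors shift the median of all genes by at most 0.13. Without mitochondrial transcripts in the total, the mean share is 18.7% in NDLN Tregs and 25.98% in NDLN Tconvs, and without the 5 libraries it is 12.6% in heart Tconvs, from 1 library.

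What libraries with the same number share beyond it is not stated in the labels. Over 63 pairs with the same number, deviations correlated at -0.06 to 0.18 (median -0.00024), against -0.23 to 0.13 (median -0.00083) over 126 pairs with other numbers. Even so, 15 of 21 libraries correlated best with one of their own number, and the main fit has no term for it. The 5 libraries given apart all carry number 1 or 2, so the number is tied to the low shares. With the replicate block, heart over spleen Tconvs had 44 called, against 1.31% of all genes called lower, and heart over NDLN Tregs 4, against 0.487%.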
